A study of Mus musculus with 50 samples.

Results

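The genes described here were 10 members of the BCL2 family, namely Bcl2, Bcl2l1, Bcl2l2, Mcl1, Bcl2l11, Bad, Bak1, Bid, Bik and Bmf, taken by gene name from a table of 37701 genes. They were measured by RNA sequencing in 50 mammary gland (MG) tumors of female p53R270H/+WAPCre mice, with 10 tumors in each of 5 treatment groups. Per the paper, these tumors were picked as resembling an epithelial to mesenchymal transition and for a latency near the median of their group. The paper reports a significantly shorter latency with X10 and IGF1. Age at collection and length of exposure therefore go with treatment in these groups and cannot be told apart from it. In these mice the Wap promoter, which is active in mammary epithelium, drives Cre, and Cre switches on a heterozygous R270H point mutation of p53, so every tumor of every group, controls included, arose on this mutant background. From 8 weeks of age the mice received subcutaneous injections every other day of vehicle (titled untreated in the sample names), insulin, the insulin analogue glargine, the insulin analogue X10 or insulin-like growth factor 1 (IGF1). Tumors were taken at a size of 1 cm3, 24 h after the last injection. Nothing in the sample descriptions says whether each tumor came from a different mouse, so p-values measure the spread between these tumors only. Of the 10 members, 4 block cell death and 6 promote it.

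The BCL2 family decides whether the outer mitochondrial membrane is opened, the step that releases cytochrome c and starts the caspase cascade. The anti-apoptotic proteins BCL2, BCL-XL (gene Bcl2l1), BCL-W (Bcl2l2) and MCL1 hold the membrane intact. BAK (Bak1) and its relative BAX are the effectors that form the pores. The BH3-only proteins BIM (Bcl2l11), BAD, BID, BIK and BMF sense stress and either neutralise the anti-apoptotic proteins or activate the effectors. Insulin and IGF1 signal to this family through AKT, which phosphorylates BAD and keeps FOXO factors, known activators of Bcl2l11 transcription, out of the nucleus. In the mammary gland BIM and BMF are known for removing cells that have lost contact with the matrix and for the clearing of ducts, and BCL-XL and MCL1 for keeping epithelial cells alive.

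Promoters are shown for Bcl2l11 and Bmf, the most strongly correlated pair of members, and for Bcl2, whose correlation with Bcl2l11 passed the threshold over all genes and that with Bmf did not. Each is the 250 bases before the outermost RefSeq transcript start, from RefSeq on GRCm38.p6, written 5′ to 3′ on the strand of the gene. Capitals mark matches, on either strand, to the forkhead letters GTAAACA, the cyclic AMP response half-site TGACG, the GC box GGGCGG and the CCAAT box.
Bcl2l11 (chr2:128125788-128126037, plus strand): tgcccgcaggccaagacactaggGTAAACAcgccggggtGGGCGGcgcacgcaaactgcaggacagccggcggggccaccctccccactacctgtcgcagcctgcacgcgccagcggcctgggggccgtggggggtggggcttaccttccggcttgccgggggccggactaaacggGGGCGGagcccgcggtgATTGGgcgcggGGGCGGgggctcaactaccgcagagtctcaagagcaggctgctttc
Bmf (chr2:118549687-118549936, minus strand): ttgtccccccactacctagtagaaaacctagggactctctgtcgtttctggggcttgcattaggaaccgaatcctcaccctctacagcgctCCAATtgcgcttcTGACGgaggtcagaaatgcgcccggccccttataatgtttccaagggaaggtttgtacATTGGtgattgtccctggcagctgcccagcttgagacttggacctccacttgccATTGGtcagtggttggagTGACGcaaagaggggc
Bcl2 (chr1:106714291-106714540, minus strand): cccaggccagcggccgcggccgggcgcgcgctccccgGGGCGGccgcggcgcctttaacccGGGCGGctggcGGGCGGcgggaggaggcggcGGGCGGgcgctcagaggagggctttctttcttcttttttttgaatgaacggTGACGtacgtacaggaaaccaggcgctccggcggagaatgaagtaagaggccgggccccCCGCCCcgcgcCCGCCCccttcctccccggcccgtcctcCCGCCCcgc
The 3 windows shared little. Bcl2l11 held 1 forkhead match, 3 GC boxes and 1 CCAAT box at a GC content of 72.0%. Bmf held 3 CCAAT boxes and 2 cyclic AMP half-sites and no GC box, and its GC content was 54.0%. Bcl2 held 7 GC boxes and 1 cyclic AMP half-site at a GC content of 74.8%. Among 32851 promoter windows of the same length in the RefSeq table, 3.17% held GTAAACA, 17.8% TGACG, 32.7% GGGCGG and 33.8% CCAAT, and the median GC content was 52.4%. The E-box CACGTG, found in 6.02% of windows, and TATAAA, found in 12.4%, were in none of the 3. Of the other members the same 6 motifs gave GC boxes in Bad and Bid (3 each) and in Bcl2l2 and Mcl1 (1 each), and no match in Bcl2l1 and Bak1, while the promoter of Bik was not searched. These matches are descriptions of letters in a window and not binding sites.

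Values are RPKM, reads scaled for library size and gene length. Reads behind them were recovered from the steps between the deposited values. Library sizes came out between 26.7 M and 51.9 M reads (median 40.9 M), with a mean of 44.6 M in the vehicle group and 37.5 M in the X10 group. No member was correlated with library size at the adjusted threshold (smallest adjusted permutation p = 0.879 over 10 relations). The depth was ample for 9 members, from at least 363 reads per tumor for Bid to at least 13117 for Mcl1. Bik rested on 29 to 254 reads per tumor, and its values carry the largest counting error.

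All 10 members passed the filter of a mean RPKM of at least 0.5. Mcl1 had the highest level per length, with a mean of 133 RPKM ± 25.0 (SD, n = 50), followed by the effector Bak1 with 89.9 ± 15.2. Bcl2l1 (44.2 ± 15.1), Bad (43.7 ± 9.66), Bmf (39.1 ± 18.7), Bid (36.0 ± 20.7), Bcl2l11 (25.3 ± 7.03) and Bcl2l2 (18.6 ± 3.64) formed the middle of the order. Bcl2 itself, the founding member, was near the bottom with 2.83 ± 1.03 RPKM, and Bik was lowest with 2.16 ± 0.991.

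Between neighbours in this order, 3 steps were larger than the SD of the log2 difference within a tumor. Mcl1 was above Bak1 in 46 of 50 tumors, Bak1 above Bcl2l1 in 50 of 50, and Bcl2l2 above Bcl2 in 50 of 50. The other 6 neighbouring pairs did not differ beyond that spread, from Bcl2l1 and Bad (Bcl2l1 higher in 27 of 50 tumors) to Bcl2l11 and Bcl2l2 (Bcl2l11 higher in 41 of 50). The order depends on the gene length used. The length recovered from the deposited values was 563 bp for Bid and 1956 bp for Bcl2l11, while all annotated exons of these genes span 3550 bp and 8029 bp. With the annotated exon lengths Mcl1, Bak1, Bcl2l11, Bcl2 and Bik kept their ranks, Bcl2l2 moved from rank 8 to rank 3, Bid from rank 6 to rank 8, and Bcl2l1, Bad and Bmf down by 1 each.

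The tumors differed most in the BH3-only genes Bmf and Bid. On log2(RPKM + 0.5) the SD over the 50 tumors was 0.64 for each, larger than that of 77.7% and 77.6% of the tested genes. The most even members were the 2 most abundant, Bak1 (SD 0.24, larger than 5.83% of genes) and Mcl1 (0.26, larger than 9.71%), and the median over all tested genes was 0.42. Treatment group took up between 0.640% of the variance of a member (Bik) and 17.6% (Bad), against a median of 9.29% over all tested genes. The shares of Bad, Mcl1 (17.4%) and Bid (15.6%) were larger than those of 84.7%, 84.2% and 78.9% of the tested genes.

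**Figure D1:**
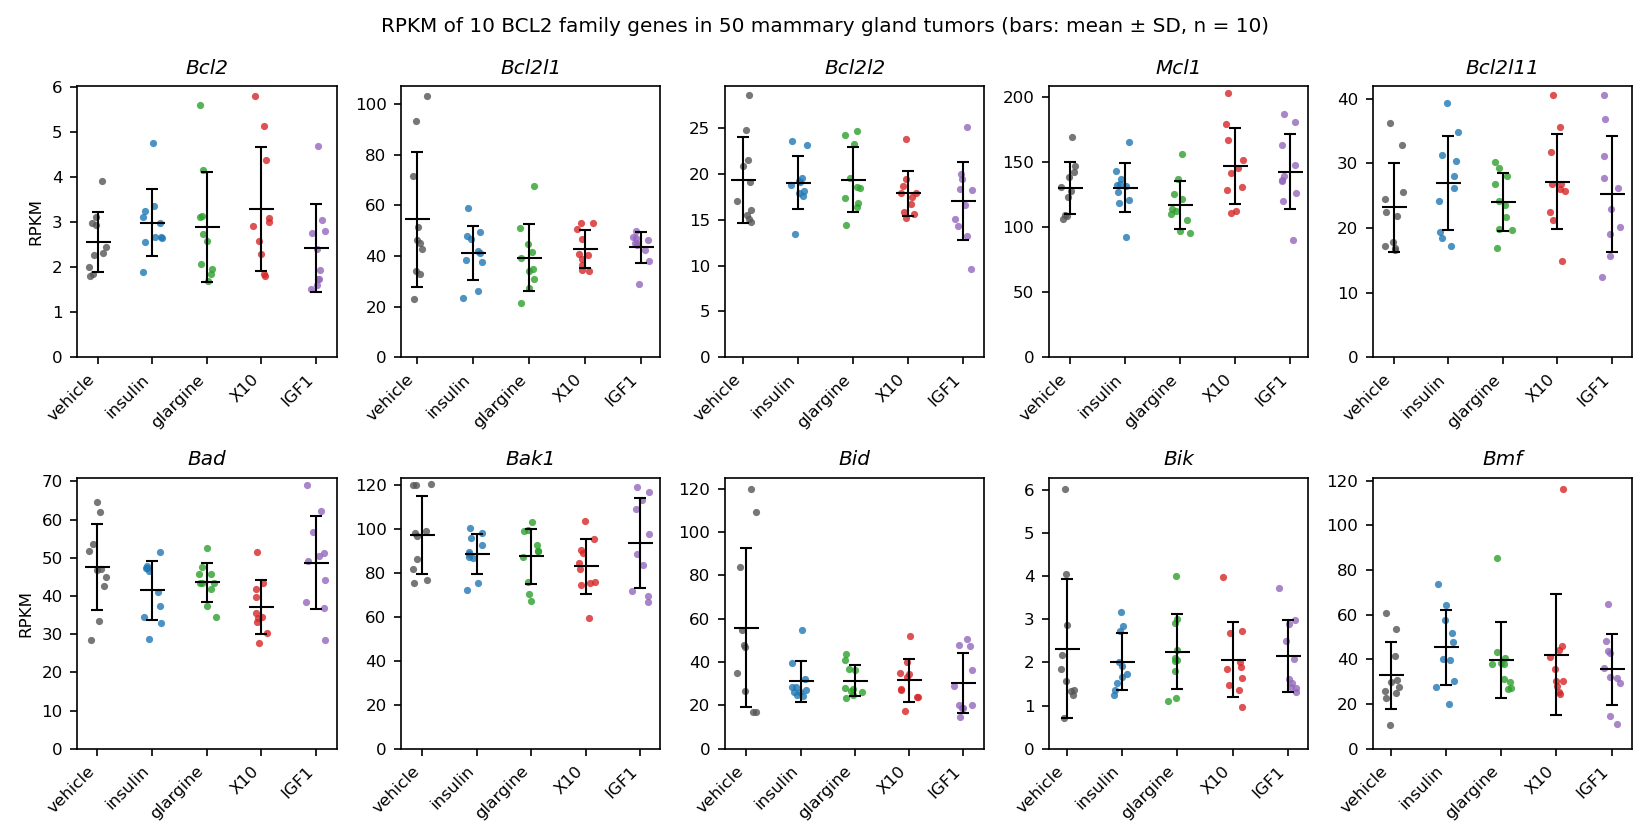
RPKM (linear axes from 0, one panel per gene) of the 10 members in the 5 groups. Points are tumors, and the black lines are the mean and SD of 10 tumors. The groups overlap in every panel, and the 3 highest points of Bid (83.9 to 120 RPKM) and of Bcl2l1 (71.7 to 103 RPKM) are vehicle tumors.

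The comparison of each ligand with vehicle asks whether long exposure to insulin-like molecules left the tumors with another balance of death and survival genes. None of the 10 members passed in any of the 4 comparisons (limma, Benjamini-Hochberg adjusted p under 0.05 over 16733 genes). The share of all tested genes that passed was 0% in the insulin and 0% in the glargine comparison, 0.0657% in that of X10 and 0.00598% in that of IGF1. At an unadjusted p under 0.05, 1 member differed with insulin (11.1% of all genes did), 2 with glargine (6.23%), 3 with X10 (11% of genes) and 1 with IGF1 (8.84%). limma voom on the recovered reads also called 0 members.

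Among the anti-apoptotic genes, Bcl2l1 (ENSMUSG00000007659, chr2:152780668-152831728, GRCm38) had its highest values in vehicle tumors. In the vehicle group it ran from 23.0 to 103 RPKM with a median of 45.7. The medians were 41.4 with insulin (range 23.3 to 58.9), 37.0 with glargine (21.5 to 67.7), 40.5 with X10 (33.9 to 52.9) and 45.0 with IGF1 (28.9 to 49.8). All 5 ranges overlapped, and only vehicle tumors exceeded 67.7 RPKM. The fitted difference was largest for glargine, a log2 fold change of -0.39 ± 0.19 (SE, 8 of 10 tumors below the vehicle median), with p = 0.0480 and an adjusted p of 0.789 (limma). With insulin, X10 and IGF1 the log2 fold changes were -0.30, -0.22 and -0.19, with 6 of 10 tumors of each group below the vehicle median. With an epithelial and a leukocyte marker score in the fit the IGF1 value turned to 0.04. All 4 neutrophil markers had log2 fold changes below 0 against vehicle with each ligand, none at the adjusted threshold. The medians were -1.11 with insulin, -0.87 with glargine, -0.61 with X10 and -1.23 with IGF1. The neutrophil score and Bcl2l1 had r = 0.42 and rho = 0.34 over all tumors (adjusted permutation p = 0.0724 and 0.242). Without the tumors farthest from the median of Bcl2l1 r was 0.27. The sign differed between groups, with r at 0.82 in vehicle, 0.46 in glargine, 0.12 in X10, 0.11 in insulin and -0.46 in IGF1 tumors. The part of neutrophils in the Bcl2l1 values was not tested.

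Mcl1 (ENSMUSG00000038612, chr3:95658788-95663176), whose short-lived protein is turned over by the proteasome, was lowest with glargine and highest with X10 and IGF1. Its vehicle values lay between 106 and 169 RPKM (median 129). The medians were 132.01 with insulin (91.9 to 165), 112.9 with glargine (95.1 to 156), 144 with X10 (110.7 to 203) and 138 with IGF1 (89.9 to 186.5). The 4 highest Mcl1 values were X10 and IGF1 tumors, and the lowest of all, 89.9 RPKM, was an IGF1 tumor as well. Against vehicle the log2 fold changes were 0.16 ± 0.11 for X10 (adjusted p = 0.609), 0.12 ± 0.11 for IGF1 (adjusted p = 0.860), -0.15 ± 0.11 for glargine (adjusted p = 0.847) and 0.00 for insulin (limma).

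Bcl2 (ENSMUSG00000057329, chr1:106538178-106714274) stayed at 1.52 to 5.80 RPKM in all tumors. Its medians were 2.37 in vehicle tumors, 2.83 with insulin, 2.66 with glargine, 2.96 with X10 and 2.16 with IGF1. The log2 fold changes against vehicle ran from -0.10 (IGF1) to 0.26 (X10), each with an SE of 0.18. An antisense gene, D630008O14Rik, overlaps Bcl2 exons on the other strand. Bcl2l2 (ENSMUSG00000089682, chr14:54883377-54888234) had medians between 17.5 (IGF1) and 19.0 RPKM (insulin) and log2 fold changes between -0.19 ± 0.13 (IGF1) and 0.02 ± 0.13 (glargine). Its exons overlap those of Gm20521 on the same strand, so reads could be shared between the 2 gene models. The 95% intervals of both genes left room for changes of up to 0.62 (Bcl2, X10) and -0.44 (Bcl2l2, IGF1) on the log2 scale.

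The effector Bak1 (ENSMUSG00000057789, chr17:27019810-27029009) was highest in the vehicle group, at 75.5 to 120 RPKM (median 97.2). The medians were 89.0 with insulin, 89.8 with glargine, 83.0 with X10 and 93.1 with IGF1. In the X10 group 9 of 10 tumors lay below the vehicle median, and the range of 59.2 to 104 RPKM still overlapped that of vehicle. The log2 fold change for X10 was -0.23 ± 0.11 with p = 0.0470 and an adjusted p of 0.449 (limma). For the other ligands it lay between -0.15 and -0.07. Exons of Ggnbp1 overlap those of Bak1 on the opposite strand.

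Of the BH3-only genes, Bid (ENSMUSG00000004446, chr6:120891930-120916853), whose protein is cut by caspase 8 and links death receptors to mitochondria, had the largest fold changes against vehicle. Vehicle tumors held between 16.8 and 120 RPKM, with a median of 47.5. The medians were 27.8 with insulin (24.2 to 54.6), 27.8 with glargine (23.4 to 43.8), 30.4 with X10 (17.4 to 52.2) and 24.4 with IGF1 (14.5 to 50.6). The vehicle group held the 4 highest values (120, 109, 83.9 and 55.0 RPKM) and also 2 of the 3 lowest (16.8 and 16.8 RPKM). Below the vehicle median were 9 of 10 insulin, 10 of 10 glargine, 9 of 10 X10 and 8 of 10 IGF1 tumors. The log2 fold changes were -0.71 with IGF1 (p = 0.0103, adjusted p = 0.407), -0.58 with insulin (p = 0.0337, adjusted p = 0.410), -0.58 with X10 (p = 0.0343, adjusted p = 0.417) and -0.55 with glargine (p = 0.0427, adjusted p = 0.789), each with an SE of 0.27 (limma). The 4 comparisons share the same 10 vehicle tumors, so they are not 4 separate observations. Between the ligands, IGF1 and insulin differed by -0.13 ± 0.27 and glargine and X10 differed from insulin by 0.03 and 0.00. Exons of Bcl2l13 overlap those of Bid on the opposite strand.

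The same 3 vehicle tumors held the 3 highest values of both genes among all 50, with 120, 109 and 83.9 RPKM of Bid and, in the same order, 103, 71.7 and 93.3 RPKM of Bcl2l1. The vehicle tumor with the fourth highest Bid value had 42.8 RPKM of Bcl2l1, below the vehicle median, at an epithelial score of 1.79. Other members differed among these 3 tumors. The first of them had the highest Bik value, 6.02 RPKM, and the second highest Bad and Bak1 values, 64.5 and 120 RPKM, whereas the tumor with 109 RPKM of Bid had the lowest Bik and Bmf values of all 50, 0.710 and 10.6 RPKM, and the lowest Bak1 value of the vehicle group, 75.5 RPKM. The epithelial scores of the 3, the mean z-score of 8 epithelial genes, were 2.75, 0.89 and 1.87, while the mean score was 0.42 in all vehicle tumors, 0.22 in X10 tumors, 0.16 in glargine tumors, -0.22 in insulin tumors and -0.59 in IGF1 tumors. The summed level of the 8 genes ran from 12.4 to 5049 RPKM in vehicle tumors, from 71.7 to 576 with insulin, from 185 to 612 with glargine, from 68.6 to 1484 with X10 and from 12.8 to 682 with IGF1, and no marker was at 0 throughout. None of the 8 markers passed at the adjusted threshold. At an unadjusted p under 0.05, 3 were lower with insulin (11.1% of all genes differed) and 6 with IGF1 (8.84%). With the epithelial and leukocyte scores in the fit, the Bid log2 fold change was -0.37 for IGF1, -0.44 for insulin, -0.47 for glargine and -0.56 for X10. In whole tumors, fewer cells of a type and less RNA per cell cannot be told apart.

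Bad (ENSMUSG00000024959, chr19:6941861-6951899), the BH3-only target of AKT, was lowest with X10. Its medians were 46.9 RPKM in vehicle tumors (28.5 to 64.5), 43.8 with insulin, 43.5 with glargine, 35.1 with X10 (27.6 to 51.6) and 49.8 with IGF1 (28.6 to 68.97). In the X10 group 9 of 10 tumors were below the vehicle median, against 4 of 10 in the IGF1 group. The log2 fold change for X10 was -0.33 ± 0.13 (p = 0.0172, adjusted p = 0.352, limma), and for IGF1 it was 0.03 ± 0.13. Gpr137 on the other strand overlaps exons of Bad.

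Bmf (ENSMUSG00000040093, chr2:118528757-118549687), which is released from myosin motors when cells detach, had the widest range of the family as a ratio of highest to lowest value, 11.0, while Mcl1 spanned more RPKM. Vehicle tumors ran from 10.6 to 60.7 RPKM (median 28.9), and the medians were 43.9 with insulin (20.1 to 73.6), 37.8 with glargine (26.8 to 85.2), 33.1 with X10 (24.3 to 116.1) and 34.0 with IGF1 (11.1 to 64.8). In each ligand group 7 or 8 of 10 tumors were above the vehicle median. The log2 fold change was 0.50 ± 0.28 for insulin (adjusted p = 0.498, limma) and between 0.09 and 0.33 for the other ligands. The 95% interval for insulin, -0.06 to 1.06, includes no change and a change of over 1. The score of 6 macrophage markers was related to Bmf at r = 0.38 and rho = 0.37 (adjusted permutation p = 0.1004 and 0.238 over 110 relations). Of these markers 0 passed at the adjusted threshold. With insulin 5 were higher at an unadjusted p under 0.05 (11.1% of all genes differed), with a median log2 fold change of 0.79. With IGF1 4 of the 6 were higher (8.84% of all genes differed), with a median of 0.93, while the Bmf log2 fold change was 0.09. Their part in the Bmf values was not tested.

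Bcl2l11 (ENSMUSG00000027381, chr2:128126038-128162547) had medians of 22.1 RPKM in vehicle tumors, 27.1 with insulin, 23.9 with glargine, 26.4 with X10 and 24.5 with IGF1. Its lowest value, 12.5 RPKM, and its second highest, 40.5 RPKM, were both in the IGF1 group. The log2 fold changes were 0.23 with X10, 0.21 with insulin, 0.09 with IGF1 and 0.08 with glargine, each with an SE of 0.18. Bik (ENSMUSG00000016758, chr15:83526862-83544634), a BH3-only protein of the endoplasmic reticulum, was between 0.710 and 6.02 RPKM. Its group medians were 1.71 to 2.08 RPKM and its log2 fold changes -0.03 to 0.07, each with an SE of 0.22.

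**Figure D2:**
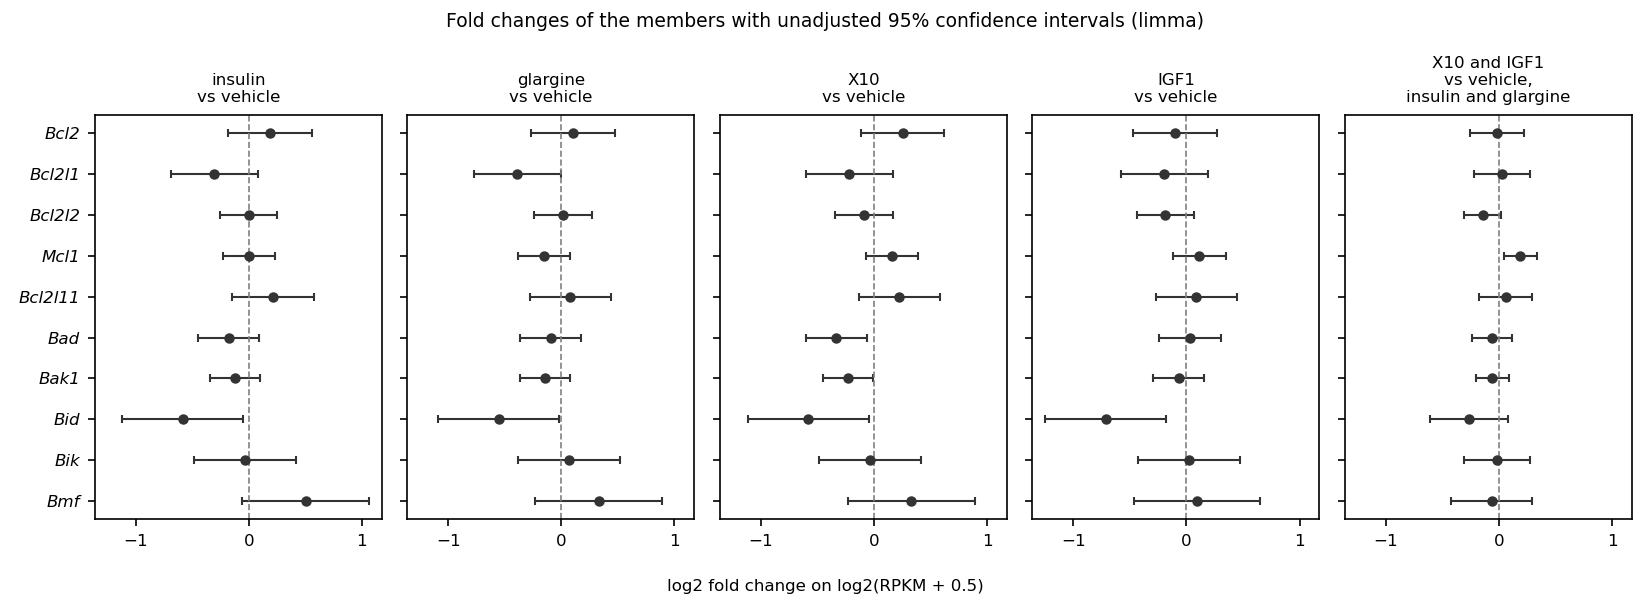
Log2 fold changes on log2(RPKM + 0.5) of the 10 members (rows) in 5 comparisons (panels). Points are limma estimates and lines their unadjusted 95% confidence intervals. Bid lies at -0.58, -0.55, -0.58 and -0.71 against vehicle, and the last panel shows Mcl1 at 0.19.

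X10 and IGF1 bind the IGF1 receptor with high affinity, and the study set these 2 groups against vehicle, insulin and glargine. Of the members 0 of 10 passed in this comparison, where 0.155% of all tested genes did. Mcl1 was the 1 member with an unadjusted p under 0.05, as were 10.5% of all genes. Its log2 fold change was 0.19 ± 0.07 (SE), a ratio of 1.14, with p = 0.0130 and an adjusted p of 0.304 (limma), and the adjusted p stayed between 0.224 and 0.426 over the other settings. Next were Bcl2l2 at -0.14 ± 0.08 (p = 0.0880) and Bid at -0.27 ± 0.17 (p = 0.128). The remaining 7 members lay between -0.06 and 0.06.

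Against insulin, 0 of 10 members passed for glargine, X10 or IGF1 (0%, 0.102% and 0.00598% of all genes passed), and none had an unadjusted p under 0.05 (3.96%, 11.3% and 7.3% of all genes did). The largest differences were those of IGF1, at -0.41 ± 0.28 for Bmf, -0.29 ± 0.18 for Bcl2 and 0.21 ± 0.13 for Bad. The F test for any difference among the 5 groups gave 0 members at the adjusted threshold (0.102% of all genes) and 0 at an unadjusted p under 0.05 (13.1% of genes), with the smallest p-values for Bad (0.0645), Mcl1 (0.0742) and Bid (0.0850).

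The genes around the family did not pass either. Of 15 other BCL2 family genes, including the effector Bax and the BH3-only genes Bbc3 and Pmaip1, 13 were tested, Bcl2l10 and Hrk being too low. Of 18 genes that act after the mitochondrial step, such as caspases and their inhibitors, and 17 upstream regulators, such as Akt and Foxo genes, all were tested. In the 9 comparisons 0 of these 48 genes passed. At an unadjusted p under 0.05 the downstream genes had 3 of 18 with insulin (1 higher and 2 lower, against 11.1% of all genes). They had 0 with glargine (6.23% of all genes), 1 with X10 (11%) and 1 with IGF1 (8.84%), both higher. Against insulin they had 4 of 18 with glargine (3 higher and 1 lower, against 3.96% of all genes). With X10 they had 2 (11.3% of all genes) and with IGF1 1 (7.3%), all 3 lower. In X10 and IGF1 against the other groups they had 2 (1 higher and 1 lower, against 10.5% of all genes). Against vehicle, with insulin, glargine, X10 and IGF1 in turn, the upstream regulators had 1, 0, 2 and 0 of 17. The other family genes had 0, 0, 1 and 0 of 13. The shares of all genes in these 4 comparisons are those given above. The median log2 fold changes of the 3 lists were within 0.10 of 0 in each comparison with vehicle, where the median of all tested genes lay between -0.03 and 0.03. The Bcl2a1 copies Bcl2a1a, Bcl2a1b and Bcl2a1d are nearly identical, and their separate values are uncertain.

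Treatment group took up at most 17.6% of the variance of a member, and the rest lay between tumors of a group. Over 45 pairs of members, 2 were correlated at an adjusted permutation p under 0.05 when Spearman p-values were adjusted over all 167275 relations of a member with a tested gene. That is 4.44% of the pairs, against 3.5% of all relations, a share near that background. Adjusted over the 45 pairs alone, with Pearson and Spearman both required, 4 pairs passed, and all 4 were positive. Under quantile normalization and under upper quartile scaling 3 pairs passed, 2 positive and 1 negative. Over all genes 3.46% of relations were at least as large as the smallest of these 4.

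The clearest pair was that of the anoikis genes Bcl2l11 and Bmf, with Pearson's r = 0.54 (permutation p = 4e-05, adjusted p = 0.0018 over 45 pairs) and Spearman's rho = 0.55 (p = 7e-05, adjusted p = 0.0107 over all relations). Among the 16732 genes ranked by rho, Bmf was number 32 for Bcl2l11 and Bcl2l11 number 51 for Bmf. Both genes lie on chromosome 2, as does Bcl2l1, whose rho was -0.14 with Bcl2l11 and 0.03 with Bmf. Within treatment groups, after centring, r of Bcl2l11 and Bmf was 0.52 (adjusted p = 0.00495 over 45 pairs). It was positive in each group, from 0.29 (X10) to 0.82 (insulin). Without the 2 tumors farthest from the median of Bcl2l11, r was 0.47. An IGF1 tumor was low in both (12.5 RPKM of Bcl2l11 and 11.1 RPKM of Bmf), and an insulin tumor was high in both (39.3 and 64.4 RPKM).

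The relations of Bcl2 with these 2 genes were weaker. With Bcl2l11 it had r = 0.41 and rho = 0.44 (adjusted permutation p = 0.0461 over all relations), and with Bmf r = 0.45 and rho = 0.43 (adjusted p = 0.0588). The r values were 0.47 and 0.38 once the 2 tumors with the most extreme Bcl2 levels were left out. After centring within groups they were 0.38 and 0.42, each with an adjusted p of 0.0563 over 45 pairs. By group, r of Bcl2 and Bcl2l11 ran from -0.05 (X10) and 0.17 (glargine) to 0.83 (IGF1), and that of Bcl2 and Bmf from 0.18 (vehicle) to 0.65 (X10). A single X10 tumor had the highest values of both Bcl2 (5.80 RPKM) and Bmf (116.1 RPKM). Bad and Bak1 had r = 0.45 and rho = 0.43 (adjusted p = 0.0519 over all relations), with r = 0.28 after quantile normalization and 0.34 without the 2 tumors farthest from the median of Bad. Within groups this pair ran from r = -0.17 (vehicle) to 0.78 (insulin).

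Anti-apoptotic Mcl1 and the effector Bak1, which MCL1 holds inactive, were the most negative pair, with r = -0.34 and rho = -0.34 (adjusted permutation p = 0.147 over all relations). Under quantile normalization r was -0.51 (adjusted p = 0.00405 over 45 pairs) and under upper quartile scaling -0.42 (adjusted p = 0.0373). Within groups it ran from -0.72 (IGF1) to 0.56 (insulin). Bid and Bcl2l1, high in the same 3 vehicle tumors, had r = 0.37 and rho = 0.18 (adjusted p = 0.534), and without the 2 tumors farthest from the median of Bid r was 0.10, so the relation rested on those tumors.

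**Figure D3:**
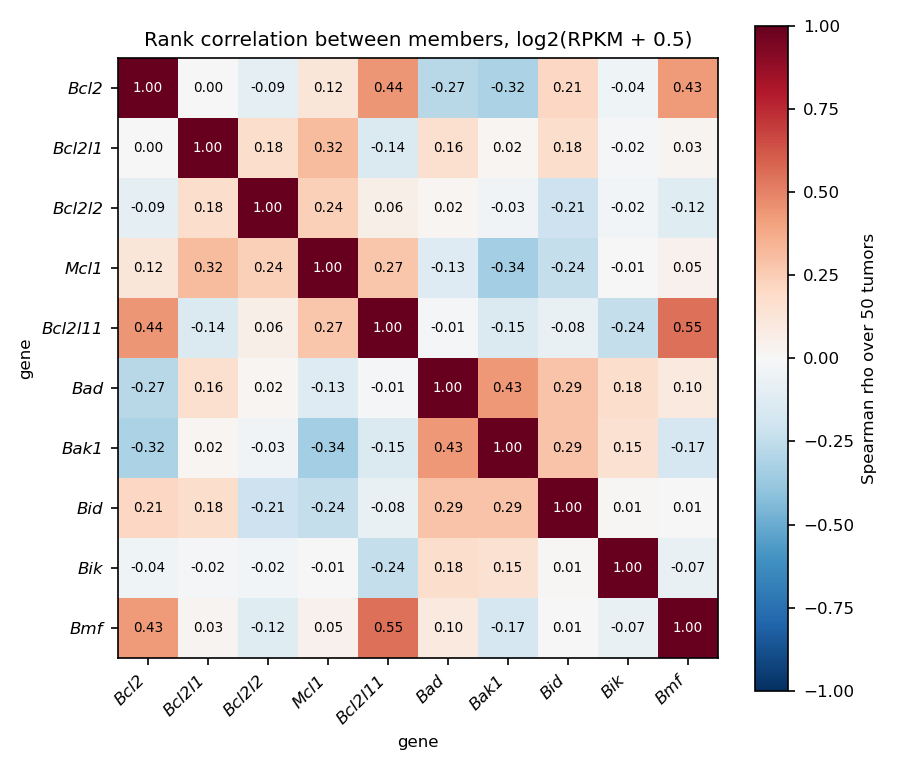
Spearman's rho on log2(RPKM + 0.5) between the 10 members over 50 tumors, from -1 (blue) to 1 (red), with each value printed in its cell. Bcl2l11, Bmf and Bcl2 form a positive block at 0.43 to 0.55, and Mcl1 with Bak1 is the lowest cell at -0.34.

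Bid and the epithelial score had r = 0.55 (permutation p = 7e-05, adjusted p = 0.0077 over 110 relations of members with 11 marker scores) and rho = 0.41 (adjusted p = 0.204). Centred within groups r was 0.51 and rho 0.48, with adjusted p-values of 0.0183 and 0.0363. Without the 2 tumors with the most extreme epithelial scores r was 0.35. Within groups r was 0.64 in vehicle, 0.57 in glargine, 0.75 in X10, 0.15 in IGF1 and -0.34 in insulin tumors. Bid and the fibroblast score had r = -0.44 (adjusted p = 0.0594) and rho = -0.31 (adjusted p = 0.323). After centring r was -0.48 and rho -0.46, with the same adjusted p-values of 0.0183 and 0.0363. Without the 2 tumors farthest from the median of Bid r was -0.24, and without those farthest for the score it was -0.29. Within groups r was -0.65 in vehicle, -0.62 in glargine, -0.27 in IGF1, -0.14 in X10 and -0.03 in insulin tumors. Bcl2l1 had r = 0.45 with the epithelial score (adjusted p = 0.0577) and rho = 0.26, and without the 2 most extreme tumors r was 0.19. Centred within groups r was 0.48 (adjusted p = 0.0183) and rho 0.37 (adjusted p = 0.154). The sign differed between groups, with r at 0.86 in vehicle, 0.45 in glargine and 0.38 in X10 tumors and at -0.57 in insulin and -0.58 in IGF1 tumors. With r and rho both required, 0 of the 110 relations passed.

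**Figure D4:**
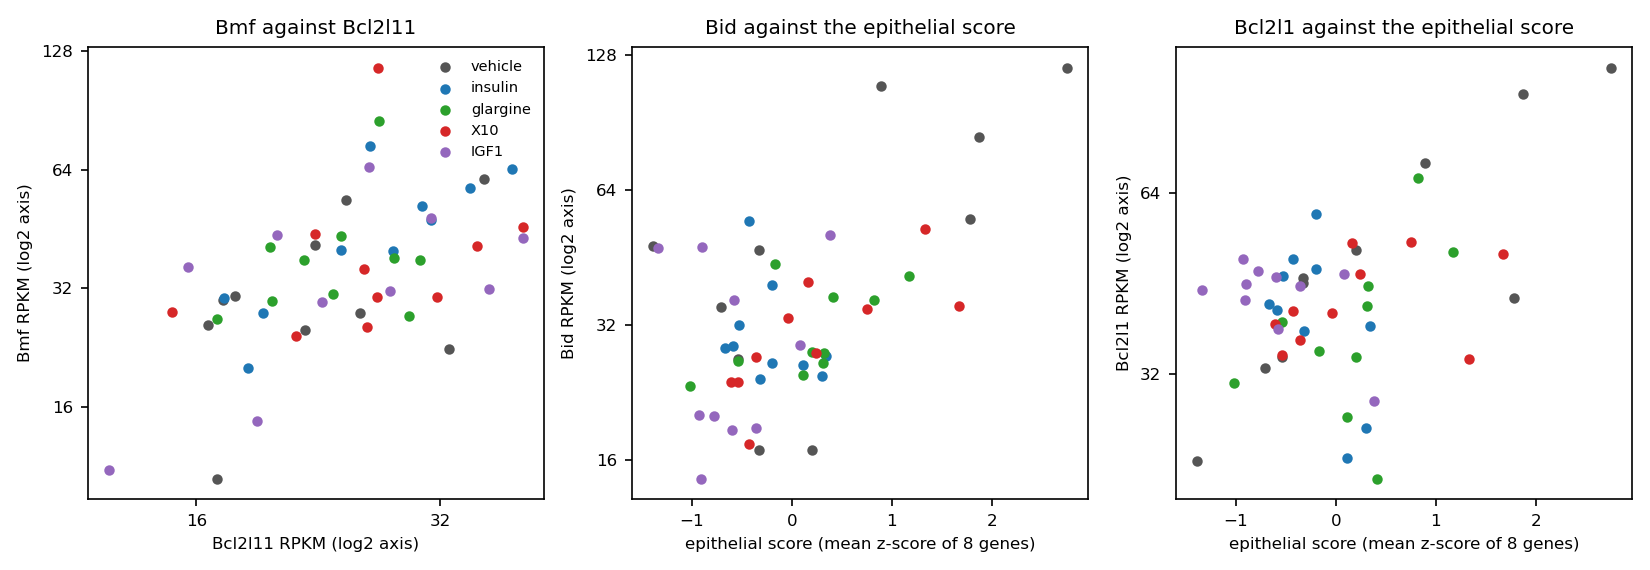
RPKM of Bmf against Bcl2l11, and of Bid and Bcl2l1 against the epithelial score, a mean z-score of 8 genes. RPKM axes are log2 axes, each point is a tumor and colors give the 5 groups. Bmf rises with Bcl2l11 (r = 0.54), and the 3 vehicle tumors with the highest Bid and Bcl2l1 values have epithelial scores of 0.89 to 2.75.

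Between members and the 48 tested partner genes, 21 of 480 relations passed over all relations (4.38%, against 3.5% of all), 17 positive and 4 negative. The pairs named next were picked after their values were seen. Bid fell with rising Casp6, an executioner caspase (r = -0.56, rho = -0.63, adjusted permutation p = 0.00554), which was number 7 of 16732 genes by the size of rho. Bid rose with Htra2, a mitochondrial protease released with cytochrome c (r = 0.61, rho = 0.50, adjusted p = 0.0202). Bak1 and Gsk3b, a kinase that marks MCL1 for turnover, had r = -0.57 and rho = -0.63 (adjusted p = 0.00554, number 17). Bcl2l2 and the stress kinase Mapk8 had r = 0.60 and rho = 0.53 (adjusted p = 0.0101, number 8).

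Among FOXO genes, Foxo1 rose with Bcl2 (r = 0.57, rho = 0.52, adjusted permutation p = 0.0170). With Bcl2l11 neither Foxo1 nor Foxo3 passed when p-values were adjusted over the 480 partner relations and r and rho were both required. Bcl2l11 and Pmaip1, another BH3-only gene, had r = 0.51 and rho = 0.50 (adjusted p = 0.0194). Bad fell with rising Usp9x, a deubiquitinase that stabilises MCL1 (r = -0.60, rho = -0.58, adjusted p = 0.00701). By the size of rho Foxo1, Pmaip1, Usp9x and Htra2 ranked between number 138 and number 356 for their member. The 7 relations kept their sign after centring within treatment groups, with r between 0.52 and 0.65 in size, and r was between 0.49 and 0.68 in size without the 2 tumors farthest from the median of either gene. Quantile normalization and upper quartile scaling were not run for the partner genes. Bad, however, was related to 1890 of 16732 genes (11.3%) at the same threshold, the most of the family. Bak1 was next with 998 (5.96%), and Bcl2l2 was related to 57 (0.341%), the fewest.

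By Spearman's rho over the 50 tumors, the genes most like each member differed from member to member. Bad was closest to Trmt112 (rho = 0.83), which lies 30811 bp away on chromosome 19, and to Zdhhc4 (0.81). Bid was closest to the kinase gene Nuak2 (0.78) and to Lgals9 (0.68), Bmf to the ubiquitin ligase gene Mylip (0.76) and to Fmo5 (0.67), and Bcl2 to the kinase gene Stk4 (0.72) and to Pcmtd2 (0.68). Mcl1 was most like the cyclin gene Ccnl1 (0.66) and Atp11b (0.65), and Bak1 like Mrps24 (0.66) and Psme2b (0.66). For Bcl2l11 these were Zfp608 and Srpk2 (0.62 each), for Bcl2l1 Plk3 (0.61) and Tmem40 (0.60), for Bcl2l2 Polr3d and Samd4 (0.58 each) and for Bik 2610019E17Rik (0.58) and Dynlt1c (0.54). Ccnl1 and Atp11b also lie on the chromosome of Mcl1, chromosome 3, at 29700538 bp and 59802511 bp from it. Polr3d and Samd4 share chromosome 14 with Bcl2l2, at 15550522 bp and 7777561 bp. Whether a shared chromosome plays a part was not tested. No member was among the 2 genes most like another member.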

How the data were processed

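RNA was isolated from a piece of each of 50 tumors, poly-A selected and sequenced on the Ion Proton. Per the study's methods, alignment was to GRCm38 (TopHat2 2.0.10, then Bowtie2), genes were counted with HTSeq 0.6.1, and the authors deposited RPKM values, that is reads scaled for the size of a library and the length of a gene. HTSeq's strand setting is not given in the sources used here beyond default options. These RPKM values were tested as log2(RPKM + 0.5) with limma 3.58.1 (R 4.3.3), intensity trend, all 5 groups in 1 fit, keeping the 16733 genes whose mean RPKM reached 0.5, with Benjamini-Hochberg adjustment and a threshold of 0.05. Because the deposited values are whole multiples of 1 scaled read, reads were recovered for 97.6% of tested genes, with at least 96.8% of low values whole in a tumor, and given to limma voom as an alternative. Correlations used two-sided permutation tests with 100000 resamples. Gene coordinates are those of GENCODE M21 on GRCm38. Members of the family, partner genes and marker lists were chosen with earlier results of these data known. Named by rule were all members, partner genes past the threshold in a comparison (none passed), and the 2 genes most like each member. Partner genes named for a correlation were chosen after their values were seen. The fit was tested on simulated data.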

Additional observations from a re-analysis of the deposited data

Results flagged for a closer look

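In 50 groups of 10 tumors (10 genes by 5 groups), 4 held a tumor whose gap to the next was too large a share of the range of its group by Dixon's 95% limit, and chance flags about 1 in 20 groups. Bmf was flagged at the top in 2 groups, where an X10 tumor had 116.1 RPKM with the next tumor at 45.8, and a glargine tumor had 85.2 RPKM with the next at 43.3. Bcl2l1 was low in 1 IGF1 tumor, with 28.9 RPKM and the next tumor at 38.0. Bcl2l2 was low in 1 insulin tumor, with 13.4 RPKM and the next at 17.6.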

How the results depend on the processing

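Under 11 other settings 0 members passed in any comparison that was run. The smallest adjusted p of a member was 0.224 (limma, upper quartile scaling). The setting with a mean RPKM of at least 5 left out Bcl2 and Bik. The fits of only the groups compared left out the F test and the comparison of X10 and IGF1 with the other groups. Of 530 other values of the 50 fold changes, 517 kept their sign and 13 turned, all of members with a log2 fold change of at most 0.19 in size. With the epithelial and leukocyte scores in the fit these became 0.0573 for Bcl2l2 with insulin, 0.0229 for Bcl2 and 0.0384 for Bcl2l1 with IGF1, and 0.0161 for Bcl2 and 0.00194 for Bik in X10 and IGF1 against the rest. Quantile normalization gave 0.0498 for Mcl1 with insulin, 0.00279 for Bik with X10, and 0.0621 for Bcl2 and 0.0586 for Bik in X10 and IGF1 against the rest. Upper quartile scaling gave 0.0108 for Bcl2l2 and 0.0121 for Mcl1 with insulin and 0.0173 for Bik with X10, and voom 0.00484 for Bik with insulin. The library size covariate, voom, the exon length order and the adjustment over all relations were added after seeing the data. Of the 45 member pairs, the 4 that passed became 2 with Spearman p-values adjusted over all relations, 1 after centring within groups, 3 (2 positive and 1 negative) under quantile normalization and under upper quartile scaling, and 2 without the 2 tumors farthest from the median, and of the marker relations 0 became 2 after centring, where the cause was not tested. The Pearson r of Bcl2l11 and Bmf passed in all 6 other settings. No paired analysis was possible because the tumor numbers are not shared between the groups.

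The depth limits Bik, with as few as 29 reads in a tumor. The unadjusted 95% intervals against vehicle reached -1.25 on the log2 scale for Bid (IGF1) and 1.06 for Bmf (insulin), so a missed threshold does not show equal levels.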

Other observations

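Beside the epithelial and macrophage genes, 9 other marker lists were measured against vehicle, and none of their genes passed at the adjusted threshold in any of the 9 comparisons (limma). At an unadjusted p under 0.05, 4 of 5 leukocyte genes were higher with insulin, with a median log2 fold change of 0.49, and 1 of 5 proliferation genes was higher with insulin. In IGF1 tumors 4 of 6 macrophage genes were higher, with a median of 0.93, 1 of 4 neutrophil genes was lower (all 4 had log2 fold changes below 0 against vehicle with each ligand) and 1 of 5 fibroblast genes was higher. In glargine tumors 1 of 4 adipocyte genes was higher. The T cell, B cell, endothelial and skeletal muscle lists had 0 such genes against vehicle. Of all tested genes 11.1% had such a p with insulin, 6.23% with glargine, 11% with X10 and 8.84% with IGF1.

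The largest Pearson r of a member with each remaining score over 50 tumors was 0.42 for Bcl2l1 and the neutrophil score, -0.41 for Bcl2l1 and the endothelial score, 0.39 for Bcl2 and the B cell score, 0.36 for Bmf and the leukocyte score, 0.31 for Bcl2 and the T cell score, -0.31 for Bad and the proliferation score, -0.28 for Bad and the adipocyte score and -0.23 for Bcl2l1 and the skeletal muscle score. Their adjusted permutation p-values over the 110 relations ran from 0.0724 to 0.434. The r of Bcl2 and the B cell score was 0.10 without the 2 tumors farthest from the median of that score.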
